A study of Mus musculus with 40 samples.

Results

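Oxtr encodes the oxytocin receptor, the cell surface receptor through which the peptide hormone oxytocin makes uterine smooth muscle contract. It was taken by its mouse gene identifier 18430 as 1 of the 23079 genes in the count table, and it was followed through all 40 RNA sequencing libraries. The libraries came from cervix and from the muscle layer of the uterus (myometrium) of C57BL/6 mice, an inbred strain, that were pregnant and at term (18.5 days post coitum). The mice carried no engineered allele according to the labels, and all had been given an intraperitoneal injection. The 4 groups were hCG cervix, PBS cervix, hCG myometrium and PBS myometrium, with 10 libraries each. Human chorionic gonadotropin (hCG) is a hormone of the placenta whose receptor is that of luteinizing hormone, and phosphate-buffered saline (PBS) was the control. Neither the hCG dose nor the interval from injection to collection is stated in the labels. The study asked what hCG does to the transcriptomes of myometrium and cervix in late gestation, and the questions followed here are whether the receptor's mRNA differs with hCG, differs between the tissues and follows the same course in both.

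The oxytocin receptor is a G protein-coupled receptor that signals mainly through Gq proteins to phospholipase C, which raises calcium in the muscle cell and activates myosin. Its mRNA is low in the uterus for most of pregnancy and rises towards labour; oestrogen raises it and progesterone lowers it. ZEB transcription factors are described as repressors of Oxtr and Gja1 in the myometrium of pregnant mice. The receptor is desensitised by G protein-coupled receptor kinases and arrestins.

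Oxtr is a protein-coding gene on chromosome 6 from 112473683 to 112491035, minus strand, in RefSeq on GRCm38.p6. GENCODE places the start of its longest transcript at 112489943, with 2 exons, of which the first spans 112488879 to 112489943 and the second 112473683 to 112477321. The nearest gene, Cav3, which encodes a muscle caveolin, lies 810 bases from Oxtr on the opposite strand and reached at most 5.63 CPM in any library. The 2 annotated genes do not overlap. A stretch of 30 bases upstream of the GENCODE start is shown because ZEB factors, named above, bind E-box forms such as the one in it. By the RefSeq bounds of the gene, which reach further, the stretch lies inside the annotated gene. It runs on the gene's strand over chr6:112490019-112490048, comes from the RefSeq promoter table on GRCm38.p6, and has the hexamer CAGGTA in capitals.
Oxtr E-box: tgcactgagactCAGGTAacttcaaattcc
Motifs were searched on both strands of the 300 bases of the table's entry for Oxtr, which reaches past the GENCODE start. CAGGTA was found 1 time there, and 12.0% of 32851 RefSeq promoters of the same length hold it. The related E-box CAGGTG was also found 1 time (20.2% of promoters), as was the E-box CACGTG (7.15%). AGGTCA, which is only a part of the full oestrogen receptor binding motif, was found 1 time (16.3%). The AP-1 motif TGANTCA was not found (7.81% of promoters hold it). The 4 motifs found do not overlap in this window. These are matches of letters, not sites of binding.

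Oxtr mRNA was lower in hCG cervix than in PBS cervix. Levels are given in CPM, counts scaled to library size with TMM factors. Total counts ran from 5449239 to 25028360 per library, and Oxtr itself had 205 to 5705 counts. In hCG cervix Oxtr had 8.78, 16.3, 22.8, 25.3 and 27.7 CPM in libraries 5, 3, 2, 6 and R3, and 29.1, 37.8, 49.8, 57.2 and 61.5 CPM in libraries 10, 4, 1, 9 and 7. In PBS cervix it had 28.8, 31.0, 35.9, 74.4 and 119 CPM in libraries R3, 5, 6, 2 and 3, and 169, 201, 239.9, 268 and 607 CPM in libraries 10, 7, 1, 4 and 8. All 10 hCG libraries lay below the PBS median of 144 CPM. The ranges overlapped: 3 PBS libraries (R3, 5 and 6) fell within the hCG range, 7 lay above its maximum, and 5 hCG libraries lay below the lowest PBS library. The mean was 33.6 ± 17.6 CPM in hCG cervix and 177 ± 175 CPM in PBS cervix (SD, n = 10 each). The fitted difference was log2 -2.39 (SE 0.504, 95% interval -3.44 to -1.34), a 5.23-fold lower level with hCG (edgeR's quasi-likelihood test, Benjamini-Hochberg adjusted p = 0.0263). Oxtr ranked 58th by p of 14932 genes tested, and 27 genes had a more negative log2 fold change, while the median over all genes was 0.01. The labels do not say which libraries come from separate animals, so p-values measure the spread between these libraries. In bulk tissue, fewer cells that express the receptor and less receptor mRNA per cell cannot be told apart.

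**Figure D1:**
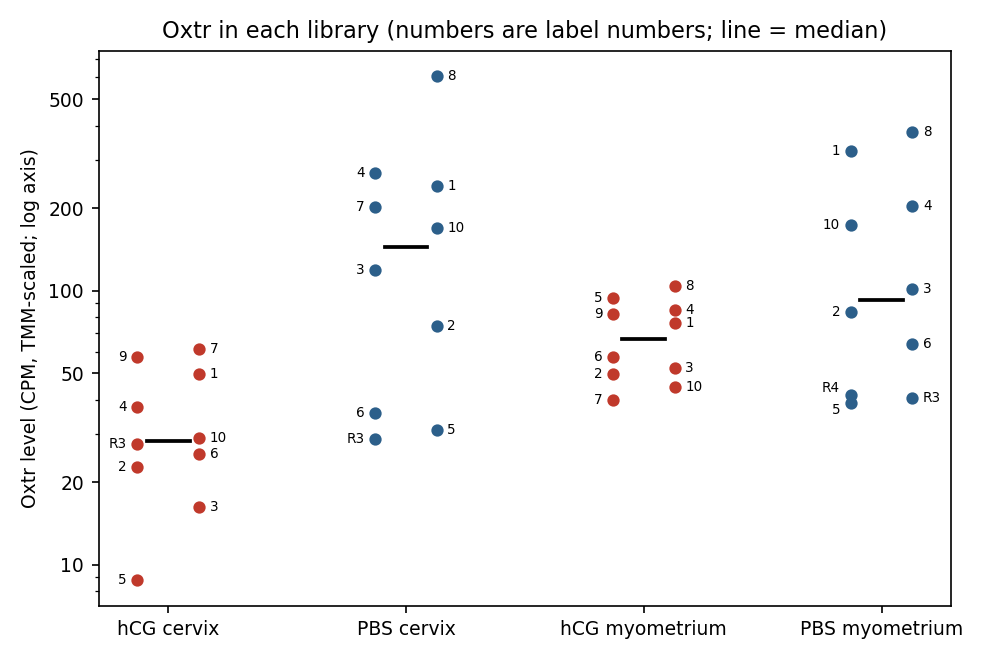
Oxtr level in each library (CPM on a log axis) in hCG cervix, PBS cervix, hCG myometrium and PBS myometrium. Each point is 1 library with its label number and the short line is the median. PBS libraries run from 28.8 to 607 CPM in cervix and from 38.8 to 379 CPM in myometrium, and hCG libraries from 8.78 to 61.5 CPM in cervix and from 40.0 to 103.9 CPM in myometrium.

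The cervix call rested on few libraries. Left out 1 at a time, hCG library 3 gave an adjusted p of 0.0562, PBS library 4 gave 0.0552, PBS library 7 gave 0.0509 and PBS library 8 gave 0.0506 with log2 -1.94 (edgeR's quasi-likelihood test in each). Without each of these 4 libraries, 1, 1, 1 and 2 genes of the whole table passed, against 1331 with all libraries. Over all 20 such fits the Oxtr value lay between -2.52 and -1.94, below 0 in each. The other 19 genes of the sets described below that were called in cervix each lost the call in 4 to 15 of these 20 fits, and none changed sign. Cervix libraries fell into 10 deeper ones with 16613261 to 25028360 counts (6 hCG, 4 PBS) and 10 shallower ones with 6613775 to 11602678 counts (4 hCG, 6 PBS). Among the deeper libraries Oxtr had 8.78 to 49.8 CPM with hCG and 74.4 to 268 CPM with PBS, with no overlap (log2 -2.68, edgeR adjusted p = 0.0440). Among the shallower libraries it had 27.7 to 61.5 CPM with hCG and 28.8 to 607 CPM with PBS, and the ranges overlapped (log2 -2.02, SE 0.835, edgeR adjusted p = 0.799).

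Some markers of the squamous lining of the cervix were also lower with hCG. The summed level of 14 squamous markers such as Krt5 was 1726 to 17598 CPM in hCG cervix and 10612 to 75522 CPM in PBS cervix, and 4 of the 14 were lower with hCG and none higher. Over all genes, 4.17% were called lower and 4.74% higher in this comparison. After centring each treatment group on its mean, 12 of the 14 markers had a positive correlation with Oxtr over the 20 cervix libraries (r from -0.514 to 0.792, median 0.469; median 0.608 over the hCG and 0.643 over the PBS libraries). With the mean log2 CPM of these markers as a covariate, the Oxtr difference was -1.28 (SE 0.689, edgeR adjusted p = 0.902), and 0 genes passed in that fit. Of the 10 smooth muscle markers 0 were called. Their sum was 1376 to 30826 CPM in hCG cervix and 2197 to 13239 CPM in PBS cervix, and with their mean as a covariate the Oxtr difference was -2.31 (edgeR adjusted p = 0.0210). The smooth muscle markers had negative correlations with Oxtr in cervix, 10 of 10, with a median r of -0.334.

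Some cervix libraries also held high levels of markers of other tissues. hCG library 5, with the lowest Oxtr of all 40, had the highest smooth muscle sum of the cervix libraries, 30826 CPM, the lowest squamous sum, 1726 CPM, and the highest sum of 5 urothelial markers, 2277 CPM. hCG library 3, next to it in Oxtr, had 620.2 CPM of urothelial and 2894 CPM of adipocyte markers. hCG library 1 had 5855 CPM of skeletal muscle markers. All 5 urothelial markers were called higher in hCG cervix, where their sum was 8.52 to 2277 CPM with a median of 18.7 CPM, against 6.38 to 64.6 CPM with a median of 18.0 CPM in PBS cervix. The medians are close, and 3 hCG libraries (5, 3 and R3) lay above every PBS library. Of 5 neutrophil markers tested, 3 were higher with hCG and none lower, with a sum of 5.35 to 235 CPM (median 54.9) in hCG cervix and 6.56 to 23.2 CPM (median 13.6) in PBS cervix. The neutrophil sum lay above every PBS library in 6 hCG libraries. With a marker score as a covariate the Oxtr difference was -2.62 for neutrophils (edgeR adjusted p = 0.0208) and -2.37 for urothelium (edgeR adjusted p = 0.0460, 81 genes passing). No marker of these lists was at 0 in a whole cervix group. Without hCG libraries 1, 3 and 5 the Oxtr difference was -2.22 (SE 0.554, edgeR adjusted p = 0.0833, 0 genes passing). In PBS cervix libraries 5 to 8, Lars2 took 3.51% to 17.5% of all counts, against 0.00663% to 0.122% in the other cervix libraries. Without those 4 libraries the Oxtr difference was -2.13 (SE 0.427, edgeR adjusted p = 0.0639, 1 gene passing).

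**Figure D2:**
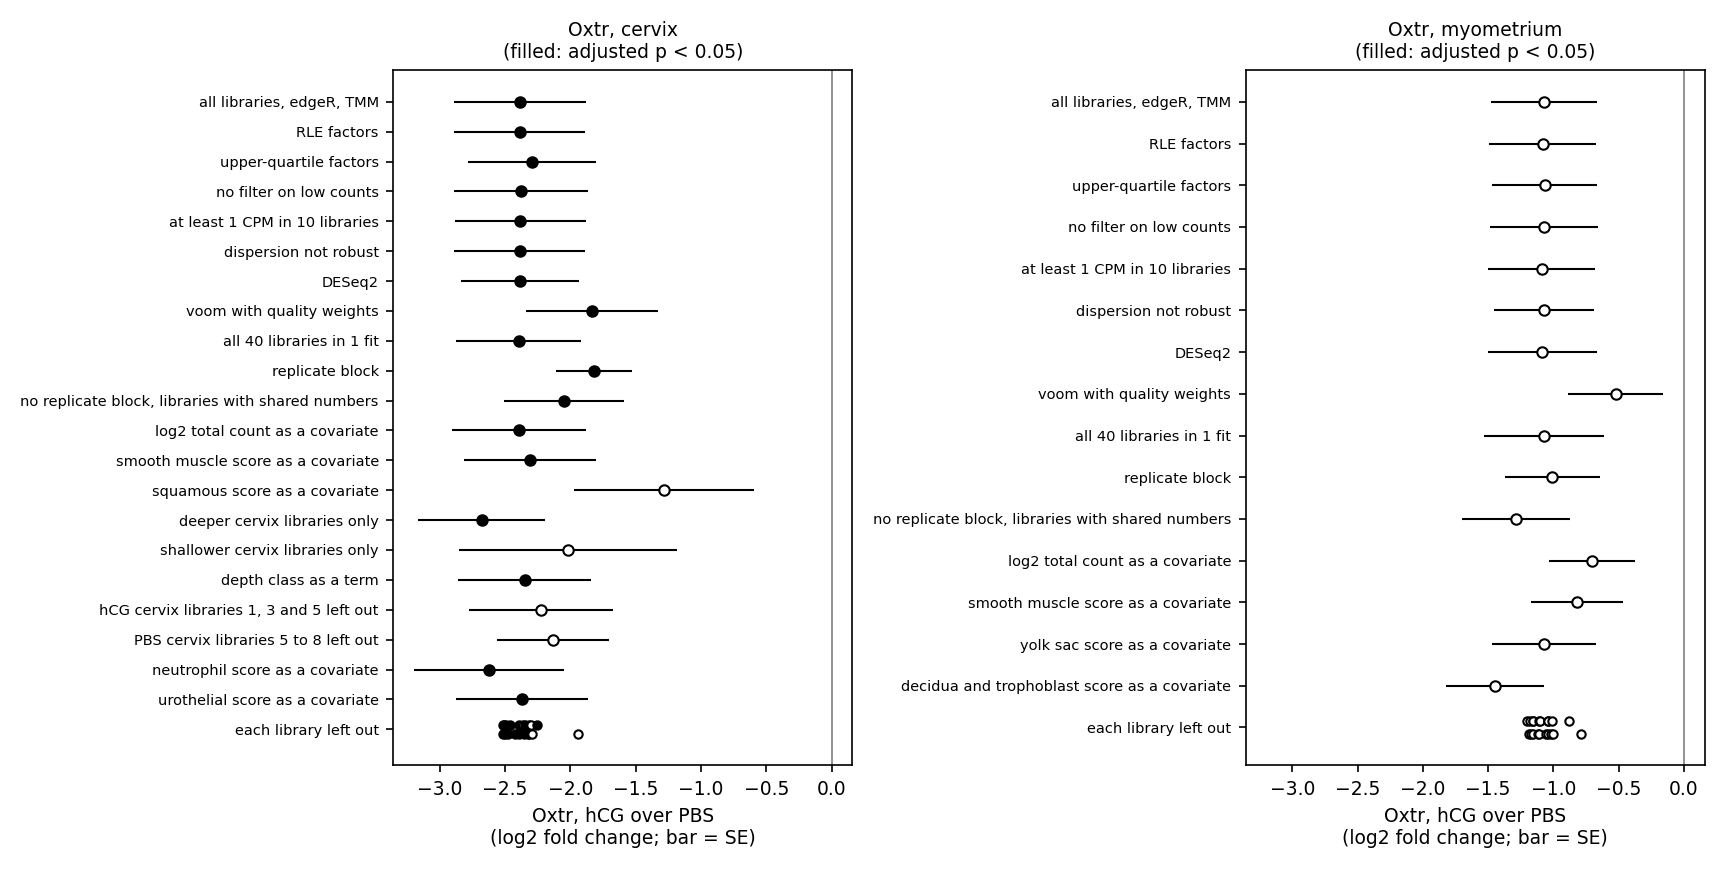
Log2 fold change of Oxtr, hCG over PBS, in cervix (left) and myometrium (right) under each alternative, with bars of 1 SE; filled points have an adjusted p below 0.05. The lowest row holds each fit with 1 library left out, without bars. All values are below 0, and the one nearest to 0 in cervix, -1.28, is the fit with the squamous score.

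In myometrium Oxtr was lower with hCG on average, but the difference did not pass the adjusted threshold. Oxtr had 40.0, 44.4, 49.5, 52.4 and 57.2 CPM in hCG libraries 7, 10, 2, 3 and 6, and 76.3, 81.9, 85.3, 94.3 and 103.9 CPM in hCG libraries 1, 9, 4, 5 and 8. In PBS myometrium it had 38.8, 40.6, 41.6, 64.2 and 83.4 CPM in libraries 5, R3, R4, 6 and 2, and 101, 173, 203, 324 and 379 CPM in libraries 3, 10, 4, 1 and 8. Every hCG library lay within the PBS range, 4 PBS libraries lay above the highest hCG library and 1 below the lowest. The mean was 68.5 ± 22.6 CPM in hCG myometrium and 145 ± 123 CPM in PBS myometrium (SD, n = 10 each). The fitted difference was log2 -1.07 (SE 0.407, 95% interval -1.92 to -0.22), a 2.10-fold lower value, with an unadjusted p of 0.0163 and an adjusted p of 0.198 (edgeR's quasi-likelihood test). In that comparison 2 of 14517 genes passed (0.0138%), and 2254 had an unadjusted p below 0.05. DESeq2 called 384 genes, and Oxtr was not one of them (adjusted p = 0.128).

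The receptor varied less between hCG libraries than between PBS libraries in myometrium. On the log2 CPM scale the mean absolute deviation from the group median was 0.430 in hCG myometrium and 1.03 in PBS myometrium, a difference of -0.60 (two-sided permutation test with 100000 resamples, p = 0.00964, adjusted over 2 tests 0.0193). In cervix it was 0.637 with hCG and 1.22 with PBS, a difference of -0.58 of like size that did not pass (permutation p = 0.0809, adjusted 0.0809). The highest library held 2.60 times the level of the lowest in hCG myometrium and 9.76 times in PBS myometrium. The same ratio was 7.01 in hCG cervix and 21.0 in PBS cervix.

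Between tissues, Oxtr was lower in hCG cervix than in hCG myometrium, by log2 -1.04 (SE 0.282, 95% interval -1.62 to -0.45), or 2.05-fold (edgeR adjusted p = 0.00521). All 10 hCG cervix libraries lay below the hCG myometrium median of 66.7 CPM, and 7 lay below its lowest library. PBS cervix and PBS myometrium did not differ beyond their spread: the difference was log2 0.28 (SE 0.548, 95% interval -0.86 to 1.42, edgeR adjusted p = 0.690). It turned to -0.17 without PBS cervix library 8. These tissue comparisons use the same libraries as the comparisons of hCG with PBS, and 43.7% of all genes were called between hCG tissues and 54.1% between PBS tissues. By mean level the order was PBS cervix, PBS myometrium, hCG myometrium and hCG cervix. In that order the neighbours PBS cervix and PBS myometrium, and PBS myometrium and hCG myometrium, did not differ past the threshold. The last step, hCG myometrium to hCG cervix, did, but not when all 40 libraries were fitted together (log2 -1.06, edgeR adjusted p = 0.0597). The difference between the hCG effects, cervix minus myometrium, was log2 -1.32 (SE 0.646, 95% interval -2.63 to -0.02) with an unadjusted p of 0.0472 and an adjusted p of 0.245 over 15624 genes (edgeR's quasi-likelihood test), so the effects were not shown to differ. In that test 0.352% of genes passed.

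Oxtr levels of the tissues ran together over PBS libraries that share a label number. There are 9 label numbers that occur in both tissues in each treatment. Whether a number stands for 1 animal is not stated, and over all genes same-numbered libraries did not deviate together in every pair, so pairs here means libraries with a shared number and not tissues of 1 mouse. Over the 9 PBS pairs the correlation of log2 CPM between cervix and myometrium was r = 0.969 (two-sided exact permutation p = 1.65e-05, adjusted 6.61e-05 over 4 relations) with a Spearman rho of 0.967 (exact p = 0.000165, adjusted 0.000331). Without the libraries farthest from the cervix median, PBS 8 and PBS R3, r was 0.950 (exact p = 0.000794, n = 7). PBS 8 had 607 CPM in cervix and 379 CPM in myometrium, the highest of both PBS groups, while PBS 5 had 31.0 and 38.8 CPM and PBS R3 had 28.8 and 40.6 CPM in the same order of tissues. Oxtr had the highest between-tissue r over these pairs of 13380 genes measured in both tissues, where the median gene had 0.277 and the 95th percentile was 0.708. This rank is a description, with no test.

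Over the 9 hCG pairs no such relation was found, with r = -0.177 (exact permutation p = 0.650) and rho = -0.233 (exact p = 0.552, both adjusted 0.650). Without hCG 5 and hCG 7, the pairs farthest from the cervix median, r was 0.773 (exact p = 0.0526, n = 7), so the low value rested on those libraries. hCG 5 had 8.78 CPM in cervix and 94.3 CPM in myometrium, and hCG 7 had 61.5 and 40.0 CPM. Oxtr ranked 9724th of 13380 genes by this r in hCG pairs. The difference between the PBS and the hCG correlation was not tested. The ratio of cervix to myometrium was 0.0931 to 1.54 in hCG pairs (median 0.460, cervix lower in 8 of 9) and 0.560 to 1.60 in PBS pairs (median 0.892, cervix lower in 6 of 9). Within the deeper cervix libraries, 6 hCG pairs gave r = -0.0414 (exact permutation p = 0.931). The other classes held 3 hCG pairs, 4 PBS pairs and 5 PBS pairs, under the 6 for which a correlation is given here. In the 4 PBS pairs with a deeper cervix library Oxtr was 74.4 to 268 CPM in cervix and 83.4 to 324 CPM in myometrium, with number 2 lowest in both tissues and number 4 highest in cervix but number 1 in myometrium. In the 5 PBS pairs with a shallower one it was 28.8 to 607 CPM in cervix and 38.8 to 379 CPM in myometrium, and numbers 6, 10 and 8 were the highest, in that rising order, in both tissues. Without PBS 5, 6 and 8, the paired libraries among those high in Lars2 in cervix, r over 6 PBS pairs was 0.958 (exact permutation p = 0.00278). Lars2 also reached 5.22% of counts in hCG myometrium and 5.63% in PBS myometrium. Those myometrium values were not used to choose the pairs left out.

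**Figure D3:**
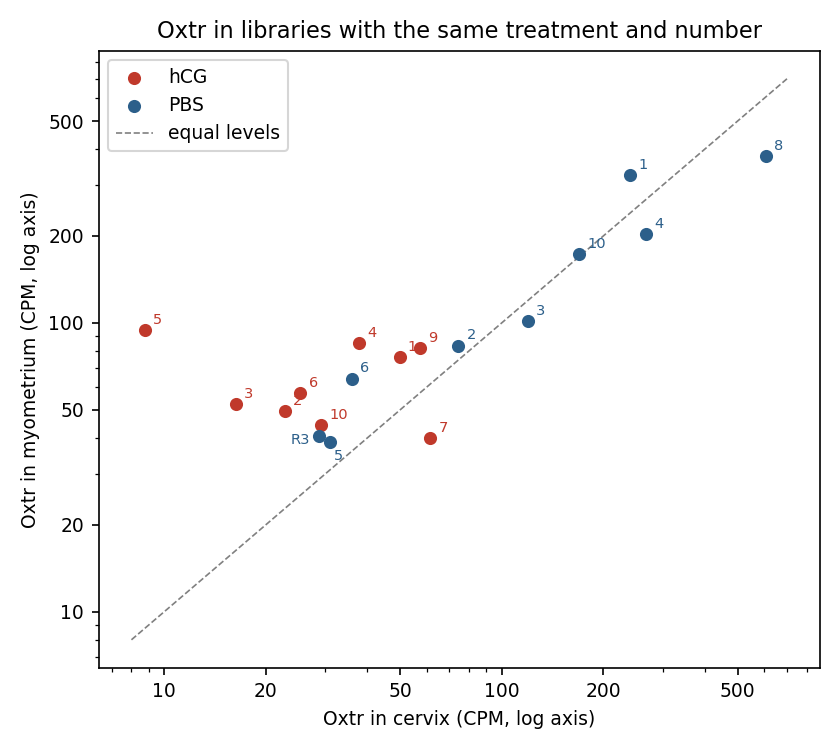
Oxtr in cervix (x axis) against myometrium (y axis), CPM on log axes, for libraries that share treatment and number; the dashed line marks equal levels. PBS pairs follow the line from 28.8 to 607 CPM in cervix, and hCG pairs 5 and 7 lie farthest from the other hCG pairs.

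The genes whose levels followed Oxtr most closely were found over the 20 libraries of each tissue. Log2 CPM was centred on the mean of the treatment group, which took out the mean difference between hCG and PBS. A difference in spread stayed: the SD of Oxtr log2 CPM was 0.859 with hCG and 1.49 with PBS in cervix. In myometrium it was 0.487 and 1.24, so r over the 20 libraries leans more on the PBS libraries. The r values are descriptions. They share library depth and tissue make-up, and they carry no p. In cervix, of 14075 genes, the 8 highest were Gpr83 (r = 0.919), Rad18 (0.898), Nppc (0.897), Cars (0.876), Cyp26b1 (0.875), Ddit4l (0.852), Scml4 (0.835) and Mthfd2 (0.830), and 17 genes had an r above 0.8. The 3 lowest were Zrsr1 (-0.900), Mettl27 (-0.846) and Abcc4 (-0.845). In myometrium, of 13718 genes, the 8 highest were Sncaip (0.941), Rad18 (0.928), Gja1 (0.918), Arhgap42 (0.899), Nrg1 (0.897), Ednra (0.881), Mmd (0.879) and Tmem200a (0.858), with 14 above 0.8. The 3 lowest were Acvrl1 (-0.862), Arl4d (-0.843) and Fst (-0.833).

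Rad18, a ubiquitin ligase of DNA damage tolerance, was the only gene among the 8 highest of both tissues with rank 2 in each. It had 9.18 to 23.6 CPM in hCG cervix and 17.0 to 53.4 CPM in PBS cervix. In myometrium it had 20.4 to 35.4 CPM with hCG and 19.2 to 92.9 CPM with PBS. Its r with Oxtr held within each treatment, at 0.865 in hCG cervix, 0.936 in PBS cervix, 0.797 in hCG myometrium and 0.947 in PBS myometrium. Without the libraries farthest from the Oxtr median (PBS 8 and 4 in cervix, PBS 8 and 1 in myometrium) it was 0.873 in cervix and 0.869 in myometrium. Rad18 fell with hCG in cervix (log2 -0.71, SE 0.195, edgeR adjusted p = 0.0342) and had a log2 difference of -0.79 in myometrium (SE 0.256, edgeR adjusted p = 0.139). Between cervix and myometrium, Rad18's own levels had r = 0.941 over the PBS pairs and 0.240 over the hCG pairs. These values are not independent of its r with Oxtr in the same libraries.

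Rad18 is also a neighbour of Oxtr on the chromosome. It lies on the same strand, 128.8 kb away, and is the nearest measured protein-coding gene on the side of the receptor's start. This survey of neighbours was chosen after the Rad18 value was seen. Of 20 genes measured within 1 Mb of Oxtr, the other 19 had r from -0.571 to 0.509 in cervix and from -0.622 to 0.479 in myometrium. The highest of these were Arpc4 in cervix and Setd5 in myometrium.

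The closest gene in cervix, Gpr83, which encodes a G protein-coupled receptor, had 0 to 2.65 CPM in hCG cervix and 0.381 to 180 CPM in PBS cervix (log2 -4.80, SE 0.982, edgeR adjusted p = 0.0263). The PBS median was 9.51 CPM, and without PBS library 8, which held the 180 CPM, the difference was log2 -3.85 (edgeR adjusted p = 0.0506). Its r in myometrium was 0.121. Nppc, encoding C-type natriuretic peptide, had 0 to 4.81 CPM in hCG cervix and 0.861 to 43.7 CPM in PBS cervix (log2 -3.43, edgeR adjusted p = 0.0263). Its r was 0.897 in cervix and 0.828 in myometrium. In myometrium Nppc was low, at 0.467 to 1.56 CPM with hCG and 0.786 to 14.1 CPM with PBS (median 2.99 CPM). Cyp26b1, a retinoic acid degrading enzyme, had 2.78 to 7.96 CPM in hCG cervix and 1.61 to 54.3 CPM in PBS cervix (log2 -2.51, edgeR adjusted p = 0.0263). Cars, a transfer RNA synthetase, and Ddit4l also fell with hCG in cervix, Zrsr1 rose, and Scml4, Mthfd2, Mettl27 and Abcc4 were not called. Of the 11 genes named in cervix, Rad18 and Nppc were also close to Oxtr in myometrium, while Cars (r = -0.02), Scml4 (0.211) and Mthfd2 (0.169) were not. Cyp26b1 (0.496), Ddit4l (0.465) and Abcc4 (-0.457) lay between, with the sign they had in cervix. Mettl27 had 0.251 and Zrsr1 -0.146 in myometrium.

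In myometrium Gja1, which encodes the main gap junction protein of the labouring uterus, had 153 to 533 CPM with hCG and 166 to 916 CPM with PBS. Its r with Oxtr was 0.800 over the hCG and 0.961 over the PBS libraries, and it was 0.706 in cervix, rank 131. Ednra, the type A endothelin receptor of smooth muscle, had r = 0.730 over the hCG and 0.927 over the PBS libraries. Sncaip, the gene closest to Oxtr, had 7.65 to 13.7 CPM in hCG myometrium and 7.78 to 30.7 CPM in PBS myometrium, and its r in cervix was 0.280. None of the 11 genes named in myometrium was called between hCG and PBS there, where only 0.0138% of all genes were called. Fst, encoding follistatin, an activin binding protein, had r = 0.0380 over the hCG and -0.937 over the PBS libraries. Arl4d had -0.186 and -0.935, and Acvrl1 -0.482 and -0.939, in the same order.

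**Figure D4:**
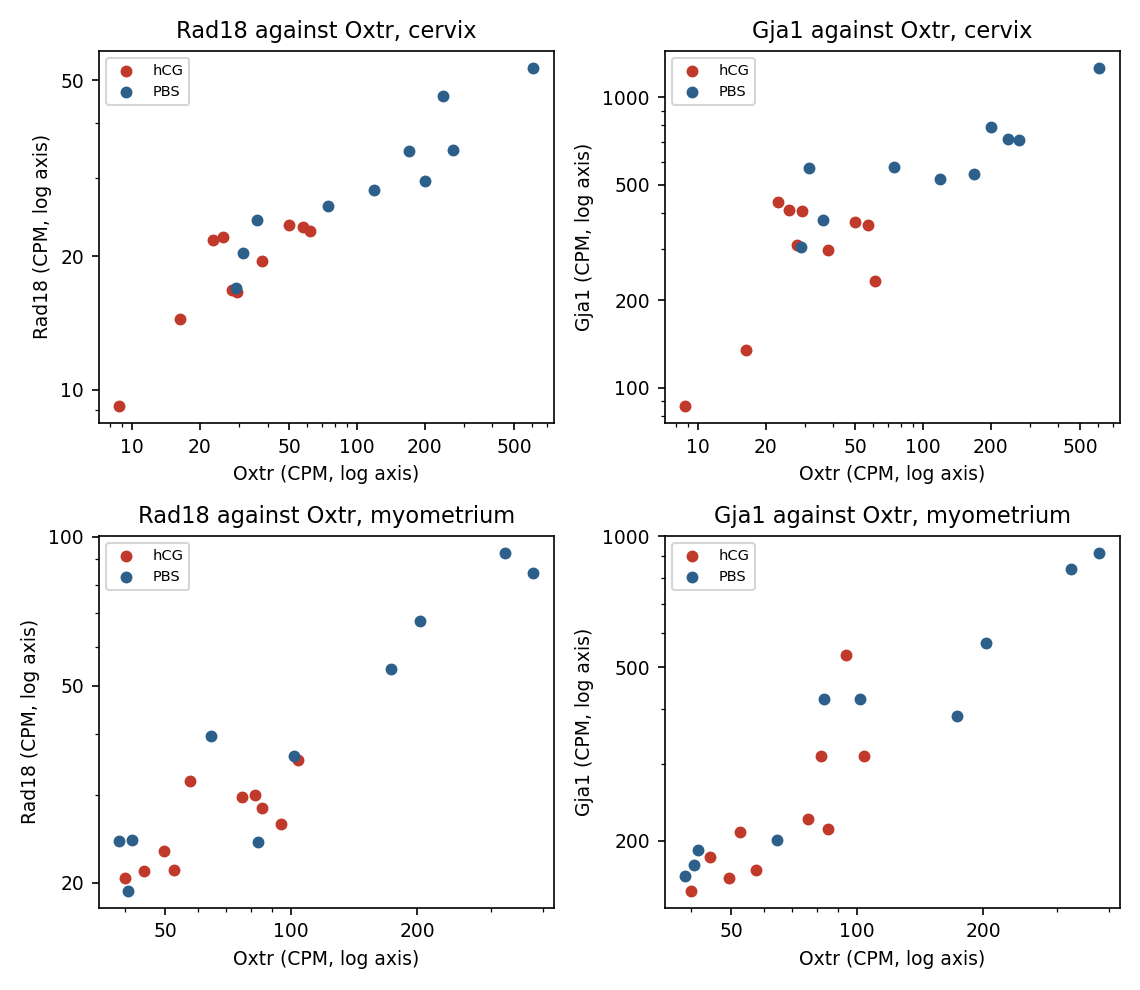
Rad18 (left) and Gja1 (right) against Oxtr in the 20 libraries of cervix (top) and myometrium (bottom), CPM on log axes, hCG and PBS in separate colours. Rad18 follows Oxtr in both tissues (r = 0.898 in cervix and 0.928 in myometrium), and Gja1 has r = 0.706 in cervix and 0.918 in myometrium.

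Of the 100 genes closest to Oxtr in each tissue, 9 were shared, 9% of each list. The lists were drawn from 14075 genes in cervix and 13718 in myometrium, of which 13379 were measured in both. They were Rad18, Nppc, Slc16a1 (a lactate transporter), Dio2 (an enzyme that activates thyroid hormone), Il17ra, Inhba and Inhbb (subunits of activins and inhibins), Lrp8 and Skil, with r between 0.690 and 0.928. Of the 90 cervix genes measured in myometrium, 59 had a positive r there, against 47.7% of all genes. Of the 98 myometrium genes measured in cervix, 76 had a positive r, against 51.9% of all genes.

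A list of 71 genes of oxytocin signalling in 8 roles sets Oxtr among the other parts of its pathway. In cervix 67 were tested, 7 were higher with hCG, 5 were lower and 55 were not called. That is 17.9% called, against 8.91% of all genes, and the list's median log2 fold change was 0.12, against 0.01. In myometrium 66 were tested and 0 were called, against 0.0138% of all genes, with a median of -0.06. No member was called for the difference between the hCG effects, against 0.352% of all genes. Both counts are near the share of all genes.

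The ligand genes were at or near 0: Oxt had 1 count over all 40 libraries and Avp, encoding vasopressin, had 2. Cd38, an enzyme needed for oxytocin release in the brain, had a mean of 25.3 CPM in hCG cervix and 16.0 CPM in PBS cervix (log2 0.68, SE 0.204, edgeR adjusted p = 0.0423). Lnpep, which cleaves oxytocin, was not called (log2 0.11). Among the related receptors, Avpr1a had 0.142 to 65.1 CPM in hCG cervix and 0.469 to 5.03 CPM in PBS cervix. That difference was not called (log2 2.33, SE 0.822, edgeR adjusted p = 0.0714), and 1 hCG library held 1595 of the 2325 counts in hCG cervix. Avpr1a was higher in hCG cervix than in hCG myometrium (log2 3.74, edgeR adjusted p = 0.00182), the opposite direction to Oxtr, and by log2 2.47 without hCG cervix library 5 (edgeR adjusted p = 0.00525). Avpr1b had 6 counts and Avpr2 177 counts over all libraries, too few to test.

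Downstream of the receptor, 1 of 10 G protein and phospholipase genes was called in cervix, 10% against 8.91% of all genes. This was Plcb4, a phospholipase C that is activated by Gq, with 93.1 ± 134 CPM in hCG cervix and 30.2 ± 7.96 CPM in PBS cervix (mean and SD, n = 10 each, log2 1.66, SE 0.466, edgeR adjusted p = 0.0360). Without hCG library 5 its difference was log2 0.79 (edgeR adjusted p = 0.0709). Of 8 desensitisation genes (25.0% called), the receptor kinase Grk3 was higher (log2 0.46, edgeR adjusted p = 0.0328) and Grk2 lower (log2 -0.54, edgeR adjusted p = 0.0420). Of 14 calcium genes, 14.3% were called. The store release channel Itpr1 (log2 0.90) and the channel Trpc1 (log2 0.66) were higher, with edgeR adjusted p = 0.0483 and 0.0445. Without hCG library 5 Itpr1 had log2 0.52 (edgeR adjusted p = 0.0915). With 1 library left out, Itpr1 kept the call in 6 and Trpc1 in 7 of 20 fits. Of 12 genes of contractile output (8.33% called, near the share of all genes) only Rhoa, a GTPase that promotes contraction, was called, at log2 -0.33 (edgeR adjusted p = 0.0417). Rgs2, a brake on Gq signalling, was not called (log2 0.58 in cervix), but its r with Oxtr was -0.705 in cervix and -0.726 in myometrium. In myometrium that value came from the PBS libraries (r = -0.895), while over the hCG libraries it was 0.217.

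Of 7 contraction associated and prostaglandin genes in cervix, 3 were called (42.9%, against 8.91% of all genes). Gja1 fell with Oxtr. It had 305 ± 119 CPM in hCG cervix and 638 ± 266 CPM in PBS cervix (SD, n = 10 each, log2 -1.06, SE 0.269, edgeR adjusted p = 0.0300). Ptgfr, the prostaglandin F receptor, had a mean of 5.83 CPM in hCG cervix and 2.28 CPM in PBS cervix (log2 1.38, edgeR adjusted p = 0.0316), opposite to Oxtr. Hpgd, which inactivates prostaglandins, was also higher (log2 0.84, edgeR adjusted p = 0.0309). Without hCG library 5 Ptgfr had log2 1.15 and Hpgd log2 0.63, with edgeR adjusted p = 0.0553 and 0.0506. In myometrium Gja1 (log2 -0.79) and Ptgfr (log2 2.07) were not called, with edgeR adjusted p = 0.242 and 0.128.

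Of 12 transcription factor genes linked to Oxtr (8.33% called, near the share of all genes), Fosl2, an AP-1 subunit, fell with hCG in cervix (log2 -0.69, SE 0.159, edgeR adjusted p = 0.0275) and 11 were not called. The oestrogen receptor gene Esr1 had log2 -0.54 and the progesterone receptor gene Pgr log2 -1.01, with edgeR adjusted p = 0.194 and 0.107. Zeb1 and Zeb2, whose products bind the E-box forms printed above, had log2 0.46 and 0.60 in cervix and 0.03 and -0.10 in myometrium, none of them called. The r of Zeb1 with Oxtr was -0.327 in cervix and -0.372 in myometrium, and that of Zeb2 was -0.113 and 0.377. Both changed sign between treatments in 1 tissue: Zeb1 had r = 0.349 over the hCG and -0.554 over the PBS libraries of myometrium, and Zeb2 had -0.518 and 0.377 in cervix, hCG and PBS in that order. Esr1 had 0.454 and 0.537, and Pgr 0.544 and 0.534, in the same tissues. In the PBS pairs the r between tissues was 0.733 for Esr1 and 0.570 for Pgr, against 0.969 for Oxtr.

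**Figure D5:**
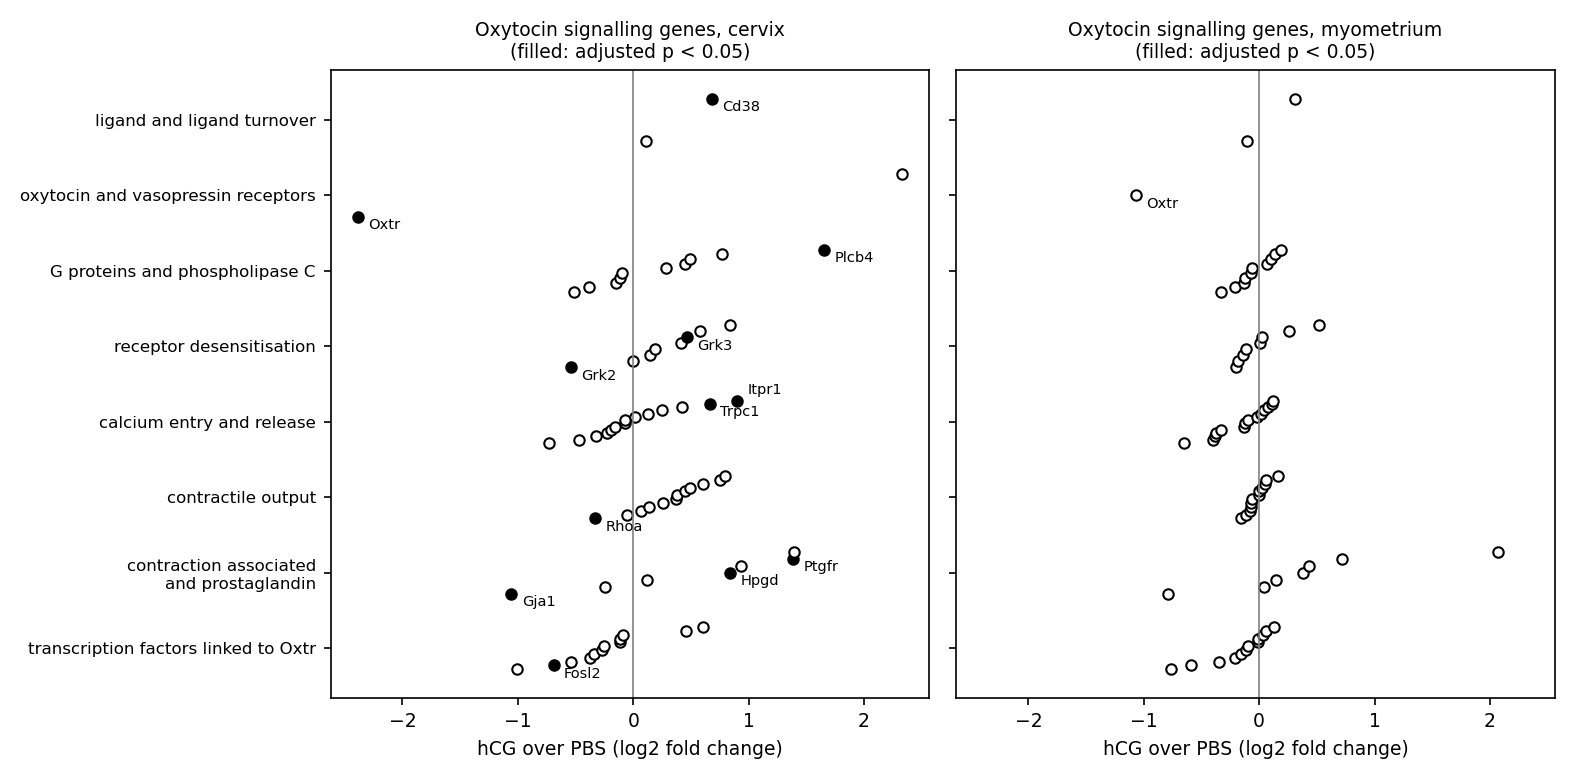
Log2 fold change, hCG over PBS, of the tested oxytocin signalling genes by role, in cervix (left) and myometrium (right); filled points have an adjusted p below 0.05 and are named, as is Oxtr. In cervix 12 of 67 are filled, with Oxtr farthest left, and in myometrium 0 of 66. Of all genes, 8.91% were called in cervix and 0.0138% in myometrium.

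Between PBS tissues, 13 of 66 signalling genes were higher and 34 lower in cervix than in myometrium (19.7% and 51.5%, against 28.1% and 26.1% of all genes), and 9 of 12 contractile output genes were lower and 0 higher. Oxtr was not called in this comparison. Between hCG tissues, 9 of 67 were higher and 20 lower in cervix (13.4% and 29.9%, against 24.3% and 19.4% of all genes), Oxtr among the lower. Squamous marker levels matched the tissue labels: the squamous sum was 1726 to 75522 CPM in cervix and 4.34 to 47.5 CPM in myometrium, where Sprr3 was at 0. The smooth muscle sum did not separate every library, as hCG cervix libraries R3 and 5 had 14775 and 30826 CPM, inside the myometrium range. hCG cervix library 5 also had 1681 CPM of simple and glandular epithelial markers, within the 1590 to 3960 CPM of hCG myometrium. In myometrium the smooth muscle sum was 13461 to 28409 CPM with hCG and 14639 to 31619 CPM with PBS, and all 10 of these markers had a negative r with Oxtr (median -0.450). Over the PBS libraries all 10 were negative (median -0.637), while over the hCG libraries 6 were negative and 4 positive (median -0.0735), and without the libraries farthest from the Oxtr median (PBS 8 and 1) the median was -0.245. Markers of yolk sac were present in myometrium, at 268 to 37111 CPM with hCG and 218 to 23604 CPM with PBS. With their score as a covariate the Oxtr difference in myometrium was -1.07 (edgeR adjusted p = 0.202). Markers of decidua and trophoblast were at 27.1 to 2502 CPM (median 311) with hCG and 3.73 to 1605 CPM (median 52.0) with PBS. All 5 of those measured had a positive r with Oxtr there (0.218 to 0.456, median 0.380). Over the PBS libraries all 5 were positive (median 0.437), while over the hCG libraries 3 were positive and 2 negative (median 0.127). Without PBS 8 and 1, 4 were positive and 1 negative (median 0.209). With the decidua and trophoblast score as a covariate the Oxtr difference in myometrium was -1.45 (SE 0.373, edgeR adjusted p = 0.0604, 57 genes passing). Over the 12 marker lists, 12 of 81 tested markers were higher and 5 lower with hCG in cervix (14.8% and 6.17%, against 4.74% and 4.17% of all genes), and 0 of 67 were called in myometrium, where 0.0138% of all genes were.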

How the data were processed

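RNA was sequenced from 40 libraries, 10 for each tissue and treatment, which the labels name. Per the labels' protocols, total RNA was made into strand-specific libraries with a TruSeq kit. The authors deposited raw gene counts in 1 table, and per the submitters' processing notes TopHat2 and GRCm38 (mm10) were used. No source used here gives the counting tool, annotation or strand setting, so reads of overlapping genes on opposite strands cannot be told apart. Gene names came from RefSeq (GRCm38.p6), where 23008 of 23079 identifiers matched; the 71 others, 0.197% of counts, stayed in the fits.

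Low genes were removed by filterByExpr over the libraries in each fit, TMM factors were applied, and genes were tested with edgeR's quasi-likelihood test (robust dispersion). P-values were adjusted by Benjamini-Hochberg over all genes tested, with a threshold of 0.05, and the step was tested on simulated data. Each comparison used its own 20 libraries, and the difference between hCG effects all 40. SE is the log2 fold change over the root of the F statistic. Likeness to Oxtr is Pearson's r of log2 CPM (prior count 2); the 8 highest and 3 lowest genes per tissue are named, without predicted gene models. From the 71 signalling genes, up to 4 per role with the smallest p and 8 fixed genes could be named, and values of part of these are given. Oxtr, the lists and the tests were chosen with earlier results of these data known. A count of 0 allows up to 0.120 CPM (deepest library) or 0.551 CPM (shallowest), taking 3 counts as the limit, for counting error alone. No batch or date of sequencing is named in the labels.

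The alternatives were RLE and upper-quartile factors, no filter, a filter of 1 CPM in 10 libraries, dispersion without robust fitting, DESeq2, limma voom with quality weights, all 40 libraries in 1 fit, the label number as a block, marker scores and log2 total count as covariates, depth classes, and each library left out. Further ones, chosen after seeing the data, left out hCG cervix libraries 1, 3 and 5 or PBS cervix libraries 5 to 8, used pairs of tissues without these or with a deeper cervix library only, a yolk sac, decidua and trophoblast, neutrophil or urothelial score, or the libraries with shared numbers without a block. Fits ran in R 4.3.3 using edgeR 4.0.16, with limma 3.58.1 and DESeq2 1.42.0 for alternatives.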

Additional observations from a re-analysis of the deposited data

Results flagged for a closer look

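PBS cervix library 8 held 607 CPM of Oxtr, far from the other 9 libraries of its group, the next of which, PBS 4, had 268 CPM. The gap between these libraries was 0.587 of the whole range of the group on the CPM scale, above the limit of 0.466 used for 10 libraries. On the log2 scale the gap was 0.269 of the range, below that limit. Such a test picks out about 1 in 20 groups by chance where values are normally distributed, which was not tested here. It was run on 4 groups, on both the CPM and the log2 scale, for the highest and the lowest library. The same number was also the highest in PBS myometrium, at 379 CPM, where it did not stand apart from PBS 1 at 324 CPM. Without PBS cervix library 8, Oxtr differed between hCG cervix and PBS cervix by log2 -1.94 (SE 0.440, edgeR adjusted p = 0.0506).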

How the results depend on the processing

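In cervix the hCG difference of Oxtr was below 0 under all 20 alternatives, between log2 -2.68 (deeper libraries) and -1.28, and passed under 16, with 2283 genes called by DESeq2 against 1331 by edgeR. It did not pass with the squamous score (-1.28), in the shallower libraries (-2.02), without hCG libraries 1, 3 and 5 (-2.22) or without PBS libraries 5 to 8 (-2.13). In these 4 fits 0, 0, 0 and 1 genes passed, in the deeper libraries 242, with depth class as a term 508, with the urothelial score 81, and with all 40 libraries 3424. With each of 20 libraries left out it lay between -2.52 and -1.94, with adjusted p from 0.0146 to 0.0562, and 1 to 2065 genes passed. The cause of these changes was not tested.

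In myometrium no alternative called Oxtr (14 fits, -1.45 with the decidua and trophoblast score to -0.52 by voom; -1.20 to -0.79 with 1 library left out). There 384 genes passed by DESeq2, 0 by voom, 4 with all libraries, 4 with the yolk sac score, 57 with the decidua and trophoblast score, 24 in the libraries with shared numbers and 1 to 137 with 1 library left out, against 2. Between PBS tissues the value was -0.17 to 0.56 with 1 library left out. Between hCG tissues it passed in 9 of 10 alternatives, was -1.06 with an adjusted p of 0.0597 when all 40 libraries were fitted together, and was -1.18 to -0.93 with 1 library left out. The difference of hCG effects passed under none (-1.61 to -0.86 with 1 library left out). The genes passing that test were 55, against 24 without a filter, 570 by DESeq2, 576 by voom, 6 in libraries with shared numbers and 0 to 678 with 1 library left out. The correlation of hCG pairs was 0.171 without libraries 1, 3 and 5 (exact permutation p = 0.717), against -0.177. The spreads and the PBS correlation kept their side of the threshold under another prior count and RLE factors. By Spearman's rho 6 of the 8 genes closest to Oxtr in cervix and 7 of 8 in myometrium were the same.

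With the label number as a replicate block, Oxtr differed by -1.82 in cervix (edgeR adjusted p = 0.0221) and -1.01 in myometrium (edgeR adjusted p = 0.228). The value was -1.06 between hCG tissues (edgeR adjusted p = 0.0211) and -0.95 for the difference of effects (edgeR adjusted p = 0.145, 0 genes passing). Between PBS tissues it was -0.15 (edgeR adjusted p = 0.384), where the sign turned. These fits held only libraries with shared numbers, so in cervix PBS 8 and hCG 9 were left out. The cervix value alone therefore does not separate the block from the loss of these libraries. Fitted without the block, the same cervix libraries also gave a value below 0 that passed. Deviations of libraries with the same number correlated above 0.1 in 4 of 9 pairs across treatments in cervix, 3 of 8 in myometrium, 3 of 9 between hCG tissues and 5 of 9 between PBS tissues, and 2, 2, 3 and 3 libraries correlated best with their own number, so the comparisons of groups were left without the block, and the correlations between tissues are over libraries that share a number, with no claim that they share an animal. Depth limits little here, since Oxtr had at least 205 counts in every library.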
